A study of Mus musculus with 2 samples.

Results

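The genes described here encode CTCF, the core of the cohesin complex, its loaders and its release and pausing factors: Ctcf, Rad21, Smc1a, Smc3, Stag1, Nipbl, Mau2, Wapl, Pds5a and Pds5b. They were chosen by function, as 10 of the 21728 protein-coding genes of the autosomes and X, and all 10 were found in the annotation on 7 chromosomes. What was measured is where domain boundaries lie around these genes in olfactory sensory neurons. The data hold no measure of how strongly the genes are expressed or of where their proteins bind.

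In situ Hi-C, which ligates DNA ends that are close together in the nucleus, was run on mature olfactory sensory neurons that express the odorant receptor gene Olfr17 (also called P2). The cells came from the olfactory epithelium of adult P2-GFP mice of the 129P2/OlaHsd strain, of mixed sex, with no treatment or modification listed, and were purified by fluorescence-activated cell sorting. There was 1 group of 2 biological replicates, of 23000 and 20000 cells, crosslinked with 1% formaldehyde and digested with DpnII. The authors' boundary list was made from both replicates combined and there was no control group, so no value below has a replicate error or a test. How many mice gave the cells, and whether the gene marked in these mice alters the locus, is unknown from the sources used here. The labelled cell type could not be checked against markers, because the list holds no expression. The list has 7576 boundaries in bins of 5 kb, of which 4045 (53.4%) are classed Strong and 3531 Weak. Each has a score without a stated unit, with a median of 0.545 and a range of 0.200 to 4.38. The class restates the score, since the highest Weak score is 0.4996 and the lowest Strong score 0.5002.

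Cohesin is a ring-shaped protein complex that folds chromatin by extruding loops of DNA. CTCF is a zinc finger protein that binds DNA in an oriented way and stops extruding cohesin, and many boundaries of mammalian domains lie at its binding sites. Neurons no longer divide, so in them cohesin is known mainly for this folding, while in dividing cells it also holds sister chromatids together. Because the products of these genes act at CTCF sequences, the sequence around each boundary was searched on both strands for the core of the CTCF consensus, written as 4 words: CCANNAGAGGGC, CCANNAGATGGC, CCANNAGGGGGC and CCANNAGGTGGC, where N is any base. A longer, stricter form of the consensus was searched as well. A match describes the letters of the GRCm38 reference and is not a measured binding site.

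Distances run from the annotated 5′ end of the gene record, called the TSS below, to the midpoint of the boundary bin. The nearest boundary lay within 25 kb of the TSS in 3 of the 10 genes, against 23.9% of all genes. These were Mau2, Pds5a and Nipbl, 2 loading factors and a pausing factor, and the farthest of them, Nipbl, lay at 8.04 kb. Next came Rad21, at 45.8 kb, so no gene fell near the 25 kb limit. Rad21, Smc3 and Stag1 lay 45.8, 47.1 and 49.7 kb from a boundary, a spread of less than 1 bin, and their order is not resolved. At the far end, only Wapl lay beyond 100 kb, a distance within which 72.4% of all genes and 9 of the 10 had a boundary.

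**Figure D1:**
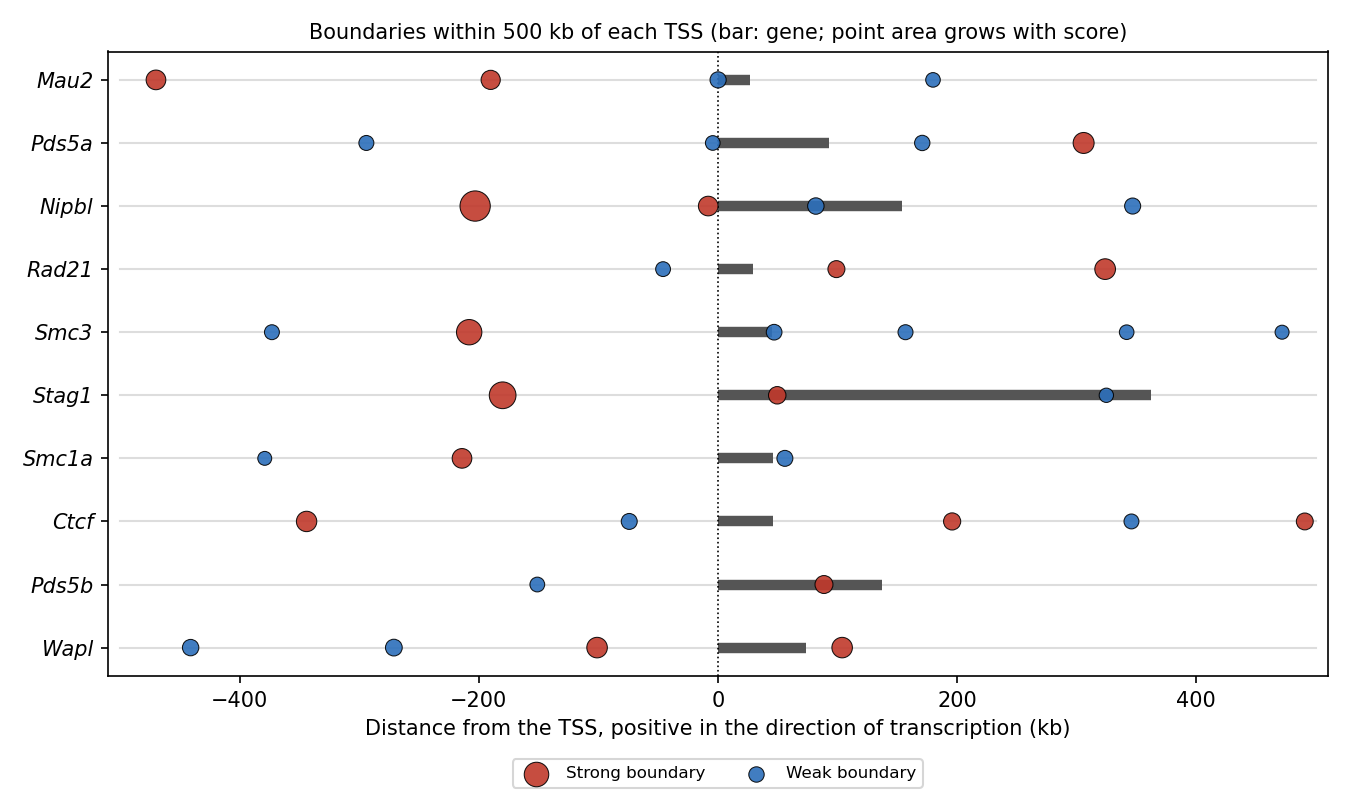
Boundaries within 500 kb of the TSS of each gene, in kb, with the direction of transcription to the right. Grey bars are the genes, red points Strong and blue points Weak boundaries, and point area grows with the authors' score. Mau2, Pds5a and Nipbl have a boundary at 0.234, 4.23 and 8.04 kb from the TSS, and boundaries lie inside Mau2, Nipbl, Stag1 and Pds5b.

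Ctcf, at chr8:105636568-105682922 on the plus strand (46.4 kb), lay in a gene-dense region well inside its interval. The upstream boundary was Weak with a score of 0.410, in the bin chr8:105560001-105565000 inside Atp6v0d1, 74.1 kb from the TSS. Downstream, a Strong boundary with a score of 0.541 lay at 196 kb, in chr8:105830001-105835000 inside Tsnaxip1. Ctcf was thus farther from a boundary than 59.9% of genes. Its interval, the stretch between the midpoints of these flanking boundaries, measured 270 kb and held 11 other protein-coding TSSs, and 48 others lay within 500 kb. Ripor1 starts 31.3 kb upstream, and the TSS of the Agrp gene record lies 0.825 kb downstream on the opposite strand. Agrp encodes a feeding neuropeptide, and which of its transcripts starts there was not examined. No boundary lies between the TSS of Ctcf and that of Ripor1 or Agrp.

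Smc1a and Smc3 encode the long coiled-coil arms of the ring, and both had a Weak boundary near the gene end and a distant Strong boundary upstream. Smc1a, at chrX:152016428-152062694 on the plus strand (46.3 kb), had its nearest boundary downstream, at 56.1 kb, in chrX:152070001-152075000. That boundary was Weak with a score of 0.410 and lay 9.81 kb beyond the end of the gene. The upstream boundary, chrX:151800001-151805000 inside Huwe1, was Strong with a score of 0.842, 214 kb from the TSS. The interval of 270 kb holds Ribc1, whose TSS is 0.133 kb away on the opposite strand, and Hsd17b10, at 14.6 kb. Iqsec2, the next gene downstream at 128 kb, lies past 1 boundary.

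Smc3, at chr19:53600398-53645833 on the plus strand (45.4 kb), ended almost at a boundary. The bin chr19:53645001-53650000 overlaps the last bases of the gene, and its midpoint lies 1.67 kb past the gene end and 47.1 kb from the TSS. This boundary was Weak with a score of 0.380. Upstream, at 208 kb, lay a Strong boundary with a score of 1.69 that overlaps Smndc1, in chr19:53390001-53395000. It ranked 527th of the list. The gene ends of Smc1a and Smc3 were both within 10 kb of a boundary, which held for 10.3% of all genes and for no other gene of the 10. Smc1a, at 9.81 kb, is so close to this limit that a bin of 5 kb does not resolve its side. Within the 255 kb interval of Smc3 lay Nutf2-ps1, 11.3 kb away and transcribed from the opposite strand, and Dusp5, at 71.3 kb. Rbm20, at 76.9 kb, lay past 1 boundary.

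The Strong boundary upstream of Smc3 had 1 core match within 10 kb, 2.29 kb from the midpoint, outside soft-masked repeat sequence and a match to the stricter consensus. It is shown because the boundary ranks high in the list. The 12 bases in capitals are the core, 5′ to 3′ on the plus strand, at chr19:53394775-53394804.
Smc3 upstream boundary: tcaaaacttCCACTAGGTGGCagtcaggat

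Rad21, the kleisin subunit that closes the ring, lies at chr15:51962240-51991747 on the minus strand (29.5 kb), alone in a small interval. The upstream boundary, chr15:52035001-52040000, was Weak with a score of 0.294, 45.8 kb from the TSS. Downstream, at 99.2 kb, chr15:51890001-51895000 was Strong with a score of 0.521, close to the 0.5 that separates the classes. The interval of 145 kb was smaller than that of all but 9.11% of genes and held no other protein-coding TSS. An interval without other TSSs held for 2 of the 10 genes, Rad21 and Nipbl, and for 8.74% of all genes. The neighbours Aard, at 48.4 kb, and Utp23, at 114 kb, were each on the far side of 1 boundary. The downstream boundary had a stricter match outside repeat sequence, 6.82 kb from the midpoint, at chr15:51899302-51899331 on the minus strand, shown with the core in capitals.
Rad21 downstream boundary: agacatgggCCAGCAGATGGCgccaaatgc

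Stag1 encodes an accessory subunit through which cohesin meets CTCF. With 362 kb, at chr9:100597798-100959375 on the plus strand, it was the longest of the 10 genes and the only gene with 2 boundaries inside. A boundary of 0.576, Strong, in chr9:100645001-100650000, lay 49.7 kb from the TSS in intron 1 of the principal transcript, which has 34 exons. A Weak boundary of 0.247, chr9:100920001-100925000, lay at 325 kb in intron 22. At least 2 internal boundaries were found in 0.824% of all genes, a share not matched for gene length. Among genes of 200 to 500 kb, 57.9% held a boundary, and the share with 2 was not computed. Upstream, at 180 kb, chr9:100415001-100420000 was Strong with a score of 1.92 and ranked 332nd of the list, the highest of the boundaries that flank these TSSs. The interval of 230 kb around the TSS holds 13.7% of the gene and the TSSs of Slc35g2, Nck1 and Il20rb, 26.7 to 111 kb away. The next gene downstream, Pccb, lay at 437 kb, past both internal boundaries.

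The 49.7 kb of Stag1 depends on which 5′ end is used. The start of the gene record comes from the transcript Stag1-205, which is outside the annotation's basic set and has 151 coding bases. The principal transcript, Stag1-206, with 3774 coding bases, starts 45.6 kb farther downstream, at position 100643448 of chromosome 9, and RefSeq places its 5′ end at the same position. From there the intronic Strong boundary was 4.05 kb away. Measured so, Stag1 would join the 3 genes within 10 kb of a boundary. The RefSeq promoter, 250 bases before to 50 after the start, is printed because it lies between the gene record start and the boundary, just before the boundary bin. It lies at chr9:100643198-100643497 on the plus strand of GRCm38.p6. Capitals mark exact matches, on either strand, to GGGCGG (the GC box of Sp factors), CCAAT, AANATGGC (the core of YY1 sites) and the NRF1 site (GCGCA, any base and GCGC), and runs of capitals merge where matches abut or overlap.
Stag1 promoter: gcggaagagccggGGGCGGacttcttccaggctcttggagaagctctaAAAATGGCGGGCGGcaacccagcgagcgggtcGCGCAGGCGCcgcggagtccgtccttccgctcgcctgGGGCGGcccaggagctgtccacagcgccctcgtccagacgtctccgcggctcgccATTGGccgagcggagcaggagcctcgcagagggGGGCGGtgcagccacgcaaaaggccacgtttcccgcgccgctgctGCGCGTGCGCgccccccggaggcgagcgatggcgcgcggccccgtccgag

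Just after this start, 2 stricter CTCF matches lay in the 5′ UTR of exon 1, 125 and 183 bases from the 5′ end of Stag1-206. They are 3.92 and 3.86 kb from the midpoint of the boundary and both point into it. Neither is in repeat sequence. They are shown as 30 bases each, on the plus strand, at chr9:100643564-100643593 and chr9:100643622-100643651, with the core in capitals.
Stag1 match at 125 bases: gcagcgcggCCAGCAGAGGGCggtcgggac
Stag1 match at 183 bases: tggaaaatgCCACCAGATGGCgggttagga
Of the 5 boundaries inside these genes, only this had core matches outside repeats. The Weak boundary in intron 22 had no core match within 10 kb.

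Nipbl and Mau2 encode the partners of the cohesin loader, and both had a boundary within 10 kb of the TSS and a boundary inside the gene, which in Mau2 is the same boundary. Nipbl, the large subunit that drives extrusion, spans chr15:8290617-8444463 on the minus strand (154 kb). Its upstream boundary, chr15:8450001-8455000, was Strong with a score of 0.838, 8.04 kb from the TSS, and 10.0% of genes lay nearer to a boundary. Inside, a Weak boundary of 0.462, chr15:8360001-8365000, lay 82.0 kb downstream of the TSS. Its midpoint falls in intron 6 of Nipbl-201, which has 47 exons, and 2 exons overlap the bin. The interval between these boundaries was 90.0 kb, against a median of 275 kb over all genes, and 0.646% of genes lay in a smaller one. It contained 53.3% of the gene and no other TSS. Cplane1, at 275 kb, and Gm2310, at 75.5 kb, each lay past 1 boundary. The highest score within 500 kb of these 10 TSSs, 2.59, was also at this locus, 203 kb upstream of Nipbl. The Strong boundary at the 5′ end had no core match within 10 kb.

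Mau2, the smaller subunit of the loader, was the nearest of the 10 to a boundary. The gene lies at chr8:70016123-70042734 on the minus strand (26.6 kb), and its TSS was 0.234 kb from the midpoint of chr8:70040001-70045000, a Weak boundary of 0.431. Of all genes, 7.27% lay within 5 kb of a midpoint. By this measure 0.387% lay nearer than Mau2, a rank that a bin of 5 kb does not resolve. The midpoint falls in the coding part of exon 1, of 19 exons in the transcript with the longest coding sequence, and the bin also overlaps Sugp1, a gene for a splicing-related protein that starts 0.0790 kb away on the opposite strand. A bin of 5 kb cannot place the boundary on either side of this shared promoter. The other flank was Strong with a score of 0.782, 190 kb upstream, in chr8:70230001-70235000 at Armc6 and Sugp2. The interval of 190 kb extends upstream of Mau2 and held 10 other TSSs, while 0.877% of the gene itself lay in it. The TSS of Gatad2a lies 46.4 kb downstream, and between it and the TSS of Mau2 lies the midpoint at 0.234 kb, so nearly all of Mau2 is on the side of Gatad2a. The next boundary on that side, 180 kb downstream of the TSS of Mau2, was Weak with a score of 0.272.

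The promoter of Mau2 is printed because all of it lies inside the boundary bin. RefSeq places it at chr8:70042685-70042984 on the minus strand of GRCm38.p6. Capitals mark the only searched promoter motif found, a GC box, here in its reverse complement.
Mau2 promoter: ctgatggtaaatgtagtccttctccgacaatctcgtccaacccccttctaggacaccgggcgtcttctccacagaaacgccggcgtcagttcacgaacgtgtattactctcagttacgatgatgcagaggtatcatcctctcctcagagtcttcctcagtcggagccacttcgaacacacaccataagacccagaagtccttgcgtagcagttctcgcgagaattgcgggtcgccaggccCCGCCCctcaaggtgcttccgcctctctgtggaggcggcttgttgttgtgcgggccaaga
No core CTCF match was found in these 300 bases. The 3 core matches within 10 kb of the boundary lay 2.73 kb or more from its midpoint and were all in repeat sequence.

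Wapl encodes the factor that releases cohesin from DNA, and it was the farthest of the 10 from a boundary. The gene, at chr14:34673928-34747983 on the plus strand (74.1 kb), started almost midway between a pair of Strong boundaries. Upstream, chr14:34570001-34575000 inside Ldb3 had a score of 0.961 at 101 kb. Downstream, chr14:34775001-34780000 had a score of 0.956 at 104 kb, 29.5 kb past the gene end. These scores were close to each other, and each exceeded that of at least 74.3% of boundaries. Of all genes, 72.9% lay nearer to a boundary. The interval of 205 kb contains Opn4, at 73.8 kb, and Ldb3, at 85.2 kb, and Grid1, at 146 kb, lay past 1 boundary. The upstream boundary had 2 core matches outside repeats, 2.01 and 0.427 kb from the midpoint. They are shown because they lie in the boundary bin and point away from each other, the former on the minus and the latter on the plus strand, at chr14:34570476-34570505 and chr14:34572913-34572942. The former matches the stricter consensus.
Wapl upstream boundary, minus strand: tttcatcgaCCACCAGGGGGCggaagttgt
Wapl upstream boundary, plus strand: catccacacCCAACAGATGGCaggtgcatg

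Pds5a and Pds5b encode related HEAT-repeat proteins that act with Wapl and halt cohesin, and their loci differed. Pds5a, at chr5:65605721-65698273 on the minus strand (92.6 kb), started 4.23 kb from a Weak boundary of 0.281 upstream, chr5:65700001-65705000. The downstream boundary, chr5:65525001-65530000 inside Smim14, was also Weak, with a score of 0.347, at 171 kb. Both scores were in the lower part of the list, and Pds5a was the only gene of the 10 with 2 Weak flanks, as 12.4% of all genes have. Mau2 would also have 2, with scores of 0.431 and 0.272, if its TSS lay across the midpoint 0.234 kb away. A bin of 5 kb does not resolve that distance. With 6.37% of genes nearer to a boundary, the start of Pds5a was close to a boundary, but to one of low score. The nearest Strong boundary lay at 306 kb, the farthest of any of the 10. Smim14 and Ube2k share the interval of 175 kb, both at 161 kb, and N4bp2, at 65.2 kb upstream, lay past 1 boundary.

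Pds5b, at chr5:150673739-150810690 on the plus strand (137 kb), had its nearest boundary inside the gene. This was Strong with a score of 0.633, 88.8 kb from the TSS, in chr5:150760001-150765000. The midpoint falls in intron 17 of Pds5b-202, which has 35 exons, and 2 exons overlap the bin. Upstream, chr5:150520001-150525000 was Weak with a score of 0.288, at 151 kb, and overlaps Brca2, whose TSS lies 0.130 kb from that boundary. The interval of 240 kb holds 64.8% of the gene, with N4bp2l2, which starts 7.56 kb upstream on the opposite strand, N4bp2l1 and Brca2. Kl, at 279 kb downstream, lay past the internal boundary. A shorter transcript, Pds5b-203, with 2103 coding bases against 4347 in Pds5b-202, starts at position 150756303 of chromosome 5, 6.20 kb from the internal boundary. That boundary had no core match within 10 kb.

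Taken as a list, the 10 genes had a median distance of 48.4 kb to the nearest boundary, against 59.3 kb over all protein-coding genes. The lowest was 0.234 kb and the highest 101 kb. Within 10 kb lay 3 of the 10, against 11.5% of genes, and within 50 kb 6 of the 10, against 43.2%. Of those 6, Rad21, Smc3 and Stag1 lie within 1 bin of the 50 kb limit. The list therefore spans near and middle distances, and its farthest gene, Wapl, lay farther from a boundary than 72.9% of all genes. It is a list of 10 chosen genes, and these counts describe it without a test.

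**Figure D2:**
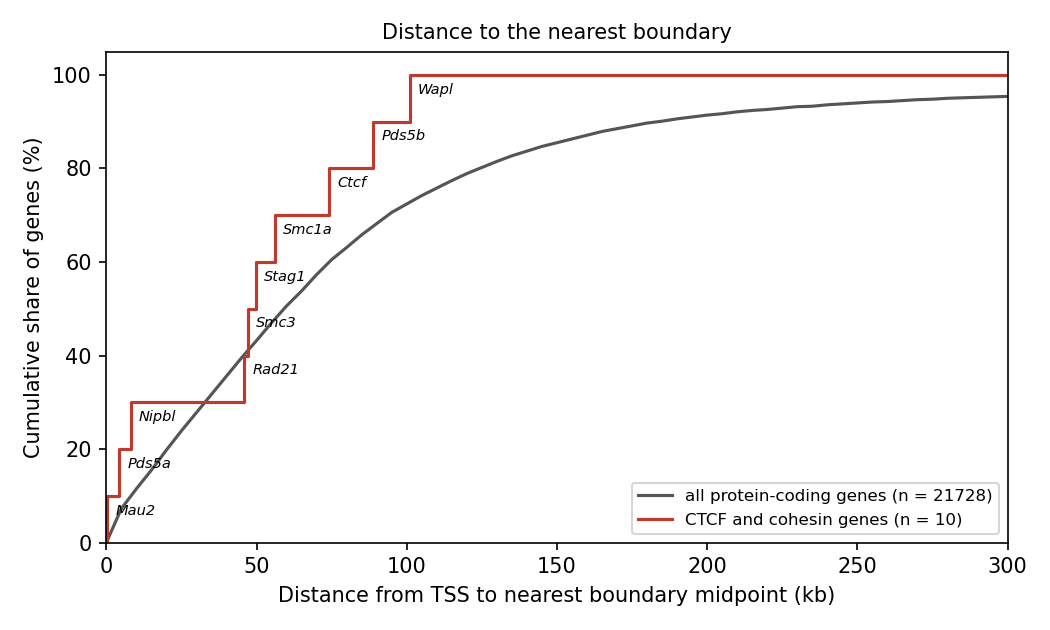
Cumulative share of genes, in percent, against the distance in kb from the TSS to the nearest boundary midpoint, for the 10 genes (red steps, each labelled at its own distance) and all 21728 protein-coding genes (grey). The red line has 3 steps below 10 kb and none again until Rad21 at 45.8 kb, and ends at 101 kb with Wapl.

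The nearest boundary was Weak in 6 of the 10 genes. In the other 4 (Stag1, Nipbl, Wapl and Pds5b) it was Strong, with scores of 0.576 to 0.961, against 64.4% of all genes, and the median score of the nearest boundary was 0.420, against 0.683. Among all 21 boundaries that flank these TSSs or lie inside the genes, however, 11 were Strong (52.4%), close to the 53.4% of the list, with a median score of 0.521 against 0.545. In 5 of the 6 genes with a Weak near flank the far flank was Strong, with Mau2 counted in its upstream interval. Both flanks were Strong for Stag1 and Wapl, as for 38.6% of all genes. With Strong boundaries alone, the median distance became 146 kb, against 100 kb over all genes, so the order of the list and all genes turned around. Within 25 kb there was then 1 gene, Nipbl, against 15.8% of all genes.

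**Figure D3:**
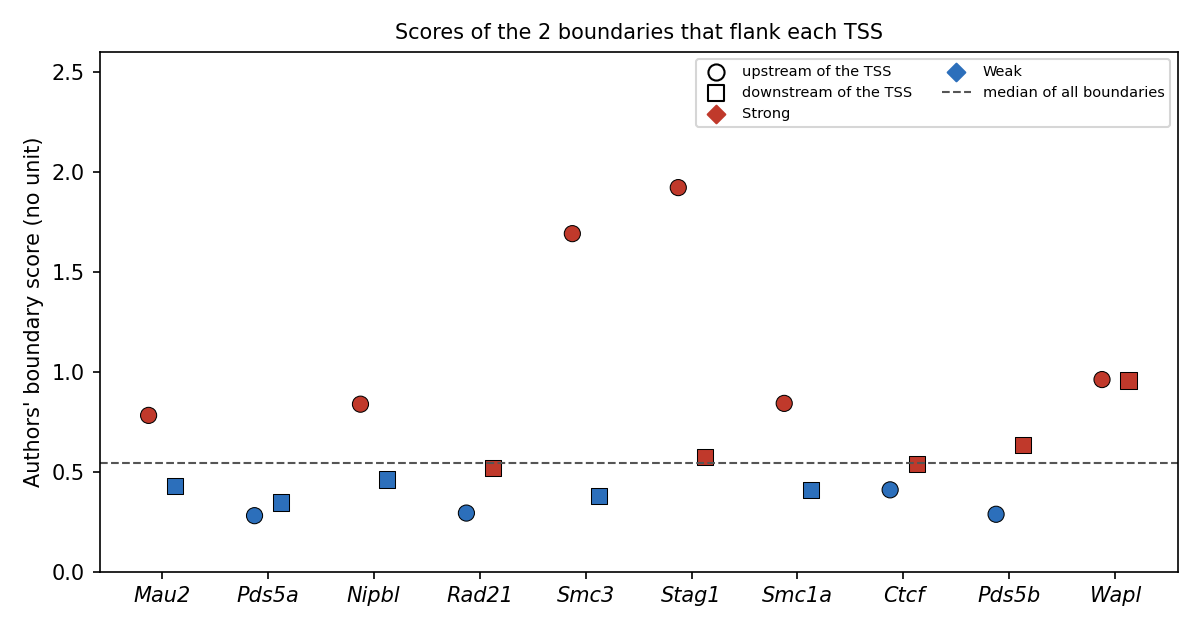
The authors' boundary score, which has no unit, for the boundary upstream (circle) and downstream (square) of each TSS, red for Strong and blue for Weak. The dashed line is the median of all boundaries, 0.545. Stag1 and Smc3 have the highest upstream scores, 1.92 and 1.69, and both scores of Pds5a, 0.281 and 0.347, lie below the line.

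The choice of 5′ end changed 3 genes. With the nearest 5′ end of any protein-coding transcript, Stag1 moved from 49.7 to 3.73 kb, Pds5b from 88.8 to 6.20 kb and Wapl from 101 to 40.2 kb. The transcript start behind the value of Wapl is outside the basic set and has 479 coding bases. Counted in this way, 5 of the 10 genes had a boundary within 10 kb, against 13.1% of genes measured alike, and the same 5 had it within 25 kb, against 26.3%. A principal 5′ end was also used, from the transcript with the annotation's top principal tag or, without that tag, the longest coding one. With it, only Stag1 moved by over 1.5 times, to 4.05 kb. Genes with several transcripts have more chances to start near a boundary, and Stag1 has 7 protein-coding transcripts, Wapl 5, Pds5b 4 and Ctcf 1. No data on transcript use in these neurons were used here.

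**Figure D4:**
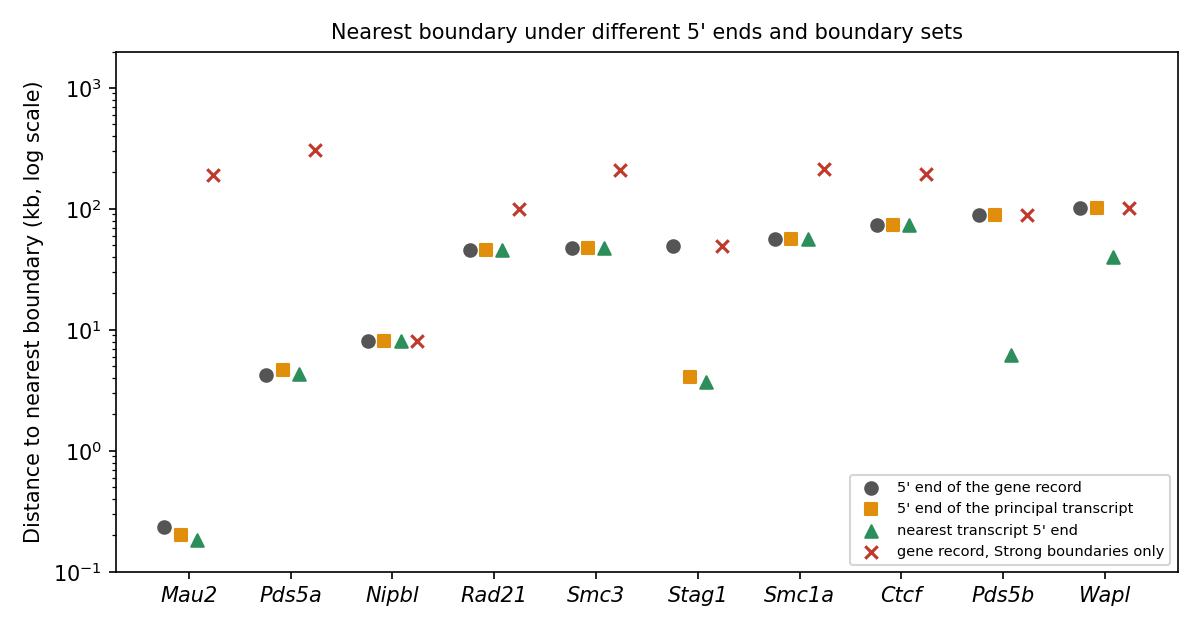
Distance in kb (log scale) to the nearest boundary for each gene, from the start of the gene record (grey circles), of the principal transcript (orange squares) and of the nearest transcript (green triangles), and from the gene record to the nearest Strong boundary (red crosses). Stag1 and Pds5b drop to 3.73 and 6.20 kb with the nearest transcript, and Pds5a and Mau2 rise to 306 and 190 kb with Strong boundaries alone.

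A boundary lay inside 4 of the 10 genes, Mau2, Nipbl, Stag1 and Pds5b, against 13.0% of all genes. With Strong boundaries alone only Stag1 and Pds5b remained, 2 of the 10 against 8.10% of all genes. Mau2 counts through a midpoint 0.234 kb inside its TSS, a distance that a bin of 5 kb does not resolve. These genes are long, with a median of 60.2 kb against 17.4 kb, and longer genes hold more boundaries. Among genes of 100 to 200 kb, 34.0% held a boundary, as did both of this length here, Nipbl and Pds5b. Among genes of 200 to 500 kb the share was 57.9%, and Stag1 is the only one of the 10 in that class. For genes of 20 to 50 kb it was 13.3%, and Mau2 was the only 1 of 5. Neither gene of 50 to 100 kb, Wapl and Pds5a, held a boundary, where 19.4% of such genes did. The 4 genes with an internal boundary thus include the 3 longest of the 10, and the part of length in the count was not tested.

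Intervals around these TSSs ranged from 90.0 kb (Nipbl) to 270 kb (Ctcf and Smc1a), with a median of 218 kb against 275 kb over all genes. None of the 10 exceeded the all-gene median. This order also turned around with Strong boundaries alone, where the median interval was 768 kb against 480 kb over all genes. They held few other genes, with a median of 2 other protein-coding TSSs against 5. Ctcf and Mau2 departed from this, with 11 and 10 others, a level of at least 10 that 24.9% of genes reach. The 10 of Mau2 rest on its TSS lying 0.234 kb upstream of a boundary midpoint, which a bin of 5 kb does not resolve. Within 500 kb the median was 10 other TSSs against 16, from 4 around Rad21 to 48 around Ctcf. The number of boundaries within 500 kb ranged from 2 (Pds5b) to 6 (Smc3), with a median of 4 both for these genes and for all genes. The nearest boundary was upstream in 5 of the 10, against 51.9% of genes.

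Core CTCF matches were found within 10 kb of 18 of the 21 boundaries (85.7%), against 58.0% of all boundaries and 41.1% of the 127667 windows of 20 kb that tile the genome. The boundaries without one were the intron 22 boundary of Stag1, the Strong boundary 8.04 kb upstream of Nipbl and the Strong boundary inside Pds5b. Most of these matches lay in repeat sequence. Of the 44 matches, 37 (84.1%) lay in soft-masked sequence, against 70.4% of the 88670 core matches of the reference. Among them, 27 (61.4%) resembled the most frequent 40-base context of a core match, with at most 12 mismatches, against 49.1% of all core matches. Core matches of other contexts lay within 10 kb of 13 of the 21 boundaries (61.9%), against 42.5% of all boundaries and 27.5% of windows. Some of these are soft-masked and have the same 12 core bases as the frequent context. An example, with 13 mismatches, lies 0.676 kb from the midpoint of the boundary downstream of Wapl. Whether such matches are copies of the same repeat was not tested. The most frequent context, 30 bases of which are printed here, occurs 1553 times exactly in the reference, and its centre resembles the B2 family of short retrotransposons, which is known to carry CTCF sites in rodents. Repeat annotation was not used here. An exact copy of these 30 bases lies 8.87 kb from the midpoint of the boundary upstream of Pds5a, at chr5:65711356-65711385 on the plus strand.
Most frequent context: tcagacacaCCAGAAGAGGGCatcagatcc

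Outside soft-masked sequence the picture around these genes changed. A core match remained at 5 of the 21 boundaries (23.8%), against 30.6% of all boundaries and 17.5% of windows, so the high share above came from matches in repeats. These 5 are the boundaries upstream of Smc3 and Wapl, downstream of Rad21 and Pds5a and in intron 1 of Stag1, and 4 of them are Strong. The stricter consensus was present at 4 of the 21 (19.0%), all Strong, against 13.8% of all boundaries and 4.78% of windows. Of the whole list 53.4% is Strong, and the Strong share among all boundaries with either kind of match was not computed. None of the 5 stricter matches was in soft-masked sequence, against 10.3% of the 6562 stricter matches of the reference. The letters of the stricter form exclude the core of the most frequent context printed above. Of the 2 other matches outside repeats, 1 is that on the plus strand upstream of Wapl, printed above. The last, at the Weak boundary downstream of Pds5a, is shown for comparison with the stricter ones and lies at chr5:65535550-65535579 on the plus strand.
Pds5a downstream boundary: ctcttatcaCCACTAGGGGGCtctgctaga

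Loops between CTCF sites typically join sites that point at each other. Core matches pointing into the interval from both ends were present for 4 of the 10 genes (Ctcf, Smc3, Mau2 and Pds5a), against 18.3% of all 7556 intervals. In these 4, every inward match at the end of higher coordinate was soft-masked, and Mau2 counts through its upstream interval. Matches in any orientation were present at both ends for 8 of the 10, against 38.4%. These shares count each interval once, with or without genes, while the genes were counted by the interval of their TSS. A share over all genes was not computed. Since soft-masked copies are included, and the contact matrix was not used here, these counts describe letters at the interval ends and not loops.

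**Figure D5:**
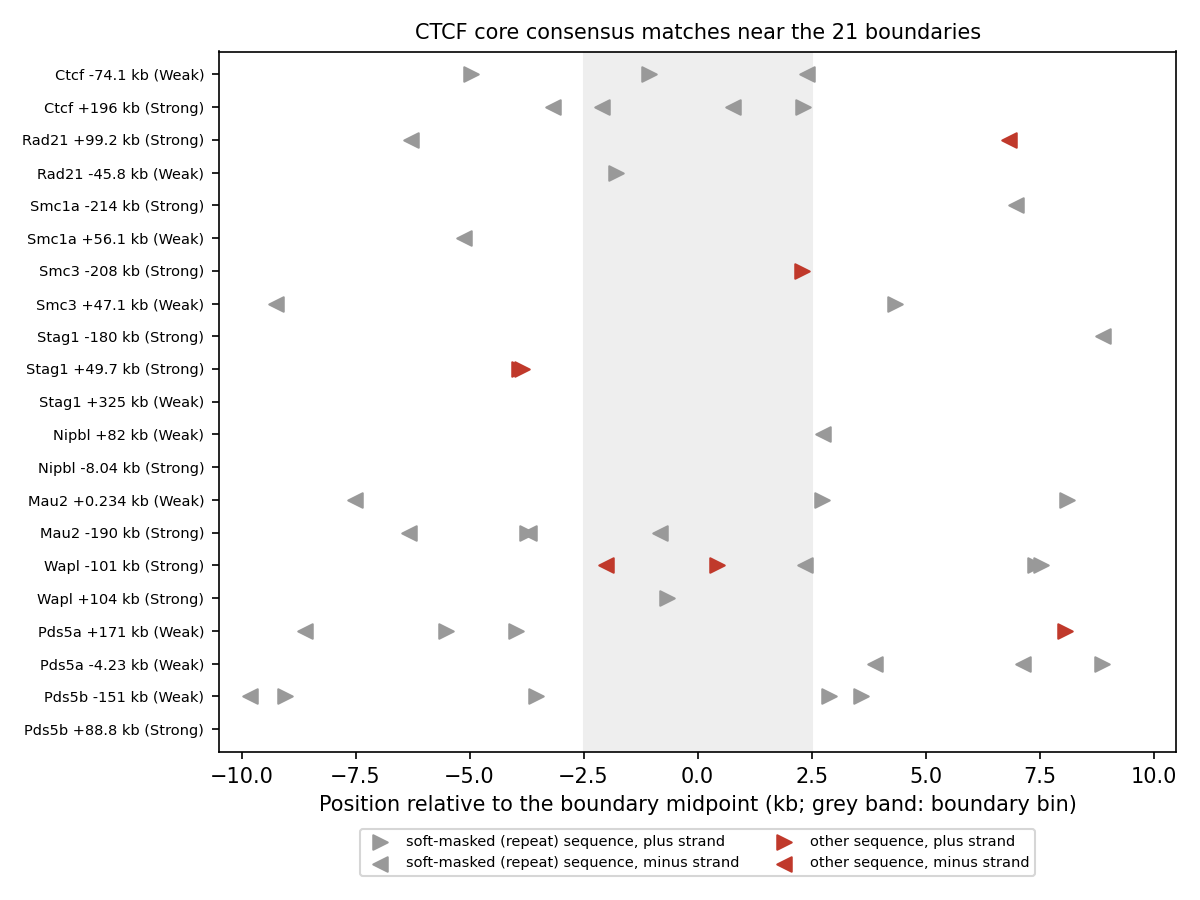
Core CTCF consensus matches within 10 kb of the 21 boundaries, by position in kb from the midpoint. Each line is a boundary named by its gene, its distance from the TSS (positive downstream) and its class, arrowheads give the strand, red marks matches outside soft-masked sequence and grey those inside, and the band is the 5 kb bin. Of the 44 matches 7 are red, at 5 boundaries, and 3 boundaries have none.

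The promoters of these genes were rich in CpG dinucleotides, as is usual for broadly expressed genes. RefSeq promoters were matched for 8 of the 10 genes, all but Rad21 and Nipbl, with 9 entries because Mau2 has a second one inside the gene. GC content at the main entries ranged from 56.0% (Mau2) to 80.3% (Pds5a), against a median of 53.0% over 32619 promoters of 300 bases. The ratio of observed to expected CpG ranged from 0.903 (Smc1a) to 1.16 (Ctcf), against a median of 0.387. The second Mau2 entry, with 1 CpG, was unlike the others. GGGCGG was found in 8 of the 9 entries, against 35.9% of all promoters, and AANATGGC in 4 (Ctcf, Smc3, Stag1 and Pds5b), against 6.08%. The NRF1 letters were found in 3 (Stag1, Wapl and Pds5b), against 4.63%, and CCAAT in 4, against 37.6%. No entry held TATAAA (13.7% of all promoters), CCGGAAG (8.92%), TGACGTCA (1.80%) or a core CTCF word (1.23%). The motifs were searched on both strands, and GC-rich letters are more frequent in any CpG-rich promoter. The entries with a boundary within 10 kb, those of Mau2, Pds5a and Stag1, spanned from the lowest to the highest GC content of the main entries.

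Other genes of these pathways give a comparison, from lists of 13 other cohesin genes and cohesion regulators, 11 condensin and further SMC genes and 6 DNA-binding factors linked to boundaries. Of these 30 genes, 6 had a boundary within 25 kb, against 23.9% of all genes. Their median distance was 48.6 kb, close to the 48.4 kb above, against 59.3 kb over all genes. Of their nearest boundaries 19 were Strong, against 64.4% over all genes. The median score of these boundaries was 0.608, against 0.420 for the 10 genes and 0.683 over all genes. Whether the lists differ was not tested. The nearest was Smc1b, the germline counterpart of Smc1a, at 0.536 kb from a Strong boundary of 0.565. Ncapg, a condensin subunit, followed at 2.42 kb, also Strong, with 0.667. The farthest were the condensin genes Ncapg2, at 203 kb, and Smc4, at 132 kb, with Smchd1, a gene of X inactivation, between them at 177 kb. Internal boundaries were found in 2 of the 30, against 13.0% of all genes. These were Hdac8, the deacetylase that recycles Smc3, and Ctcfl, the germline paralog of Ctcf. Among the other cohesin genes 4 of 13 were within 25 kb, against 23.9% of all genes. Among the condensin and SMC genes 1 of 11 was, and among the DNA-binding factors 1 of 6.

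The uniqueness of the reference was estimated around these loci, and the study's own reads were not seen. Reads of 100 bases cut from the reference and aligned back to it were unique for 85.0 to 99.0% of positions within 50 kb of the 21 boundaries, against 88.4% of the genome. The lowest value, below that of the genome, was at the boundary upstream of Rad21. Over the X chromosome the share was 78.0%, and at the boundaries that flank Smc1a it was 98.0 and 96.0%. GRCm38 is a C57BL/6J sequence, and how far 129P2/OlaHsd differs from it at these loci was not tested. The depth is unknown, since no sequencing or contact total is stated in the labels, and low-score boundaries carry no stated error.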

How the data were processed

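Per the labels' design text, the authors pooled the contacts of 2 replicates into a GRCm38 matrix, from which the boundaries were called. For each 5 kb bin the deposited list holds a class and a score by the authors. Its unit is not stated, and it was compared only within the list. Caller, window and aligner are unstated in the sources used here. Contact matrix and other tracks were not used here.

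Genes came from GENCODE M21 and sequence, with its soft-masking, from GRCm38. Promoters came from the RefSeq table of GRCm38.p6. Coordinates are 1-based. Strand sets upstream and downstream. Matches were exact, on both strands, within 10 kb of a midpoint. Windows of 20 kb tiled the genome. Contexts of at most 12 mismatches in 40 bases counted as the frequent context, a limit chosen after seeing the values. Reads of 100 bases, every 500 bases around the boundaries and more widely spaced over the genome, were aligned with minimap2 2.31. They counted as unique from a mapping quality of 30. Scripts used Python 3.11.15, numpy 2.4.6, pandas 2.3.3 and matplotlib 3.10.9 and were tested on simulated data.

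The genes, the lists and the distances were chosen with earlier results of these data known. With 1 list from both replicates, no test was made. The named genes are the 10, the nearest neighbour on each side, all genes of an interval with at most 5 others, and of the other pathway genes those within 10 kb and the 3 farthest. Hdac8 and Ctcfl, the genes that overlap boundary bins and the transcripts were named with their values known. Alternatives were Strong boundaries, those with the highest scores, no boundaries near assembly gaps, bin edges, other 5′ ends, other distances, autosomes and stricter matches. The principal and RefSeq 5′ ends, the soft-masked and frequent-context splits and the alternatives for the other pathway genes were added after seeing the data.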

Additional observations from a re-analysis of the deposited data

How the results depend on the processing

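Of 56 recomputed values of the main counts and medians, 36 stayed within 1.5 times. With Strong boundaries alone, 1 gene was within 25 kb (15.8% of all genes), 2 genes had a boundary inside (8.10%), and the medians were 146 kb for distance, 768 kb for the interval and 0.810 for the score, against 100, 480 and 0.938 over all genes. In the upper part of the list by score (3788 boundaries), these were 1 (14.9%), 2 (7.60%), 199 kb, 912 kb and 0.889, against medians of 109, 510 and 0.973, and all 10 nearest boundaries were Strong by construction. Both settings use fewer boundaries, and in both the distance and interval medians passed from below to above those of all genes. With the nearest transcript 5′ end, 5 genes were within 25 kb (26.3%) and the median was 24.1 kb, against 55.0 kb. Other distances gave 6 genes within 50 kb (43.2% of all genes) and 9 within 100 kb (72.4%). For the other pathway genes they gave 2 within 10 kb (11.5% of all genes), 16 within 50 kb and 24 within 100 kb. Stricter matches were at 4 boundaries, core matches outside soft-masked sequence at 5 and core matches not of the frequent context at 13. Removing boundaries near assembly gaps, using bin edges, autosomes, principal transcripts or RefSeq starts kept each count and median within 1.5 times. Of 77 distances of single genes, 58 did so.

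No paired analysis was possible because both replicates form 1 group and 1 combined list. Depth is unknown, so how many Weak boundaries a deeper map would keep was not tested. A bin of 5 kb limits distances to about 2.5 kb.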
